A study of Mus musculus with 6 samples.

Results

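Matrix metalloproteinases (MMPs) and the tissue inhibitors of metalloproteinases (TIMPs) were followed in osteoclast precursors (OCPs) with and without the long noncoding RNA lincRNA-EPS. The members were the rows of the gene count table named *Mmp9*, *Mmp14*, *Mmp12*, *Mmp13*, *Mmp2*, *Mmp19*, *Timp1*, *Timp2* and *Timp3*, which are 9 of 57180 genes. RNA was sequenced from 3 wild-type (WT) and 3 *lincRNA-EPS* knockout (KO) cultures, with 1 library per culture, which the series describes as independent biological replicates. WT cells came from C57BL/6 mice and KO cells from *lincRNA-EPS*-/- mice, so the bone marrow that the cultures were grown from lacked it as well. The labels give no age or sex of the donor mice, and they call the cells bone marrow-derived macrophages. Cultures of both genotypes were grown for 24 h in 40 ng/ml M-CSF, a growth factor of macrophages. Then 40 ng/ml RANKL, which turns them toward osteoclasts, was present for another 48 h. The comparison of KO with WT asks which transcripts differ after RANKL-priming without lincRNA-EPS. The labels name no treatment other than RANKL.

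MMPs are zinc-dependent proteases that cut collagens and other proteins of the extracellular matrix. They are made as inactive precursors and become active when an inhibitory propeptide is removed. TIMPs bind to the catalytic site of an active MMP and block it, so the outcome depends on the level of both. In bone, Mmp9 is a long-known product of osteoclasts, Mmp14 sits in the membrane of migrating cells, and Mmp13 is a collagenase known mainly from osteoblasts and cartilage. Transcript levels say nothing on activation or secretion of the proteases.

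The site that holds the catalytic zinc is shared by all MMPs, and it is shown for the MMPs that the results turn on. The stretches were read from the coding sequences of GENCODE release M21, 5′ to 3′, and the site was found by its conserved residues in the reading frame. The capitals mark the 33 bases that encode the site, with 15 bases on each side. For *Timp2*, the capitals mark the first 42 bases of the mature inhibitor, which encode the edge that enters the active site of an MMP.
Mmp9: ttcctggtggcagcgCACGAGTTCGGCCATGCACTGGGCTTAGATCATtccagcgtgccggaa
Mmp14: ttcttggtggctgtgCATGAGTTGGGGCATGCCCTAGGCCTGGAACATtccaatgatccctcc
Mmp12: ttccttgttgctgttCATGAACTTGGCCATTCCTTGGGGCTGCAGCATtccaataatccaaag
Mmp13: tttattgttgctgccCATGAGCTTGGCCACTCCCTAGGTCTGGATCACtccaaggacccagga
Timp2: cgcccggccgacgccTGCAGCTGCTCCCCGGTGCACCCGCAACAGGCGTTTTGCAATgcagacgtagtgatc
The printed stretch has a GC content of 60.3% in *Mmp9*, 55.6% in *Mmp14* and 66.7% in *Timp2*, and of 54.0% in *Mmp13* and 46.0% in *Mmp12*. Over the whole transcript, *Mmp9* has 55.2% GC, *Mmp14* 54.3% and *Timp2* 53.7%, and *Mmp13* and *Mmp12* have 41.7% and 40.1%. The other members have 46.8% (*Timp3*), 49.0% (*Mmp19*), 52.8% (*Timp1*) and 55.3% (*Mmp2*). This property mattered for the values below, because the libraries differed along it.

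The libraries held 17757351 to 19998611 counts. A level is given in CPM, the counts of a gene relative to the total of its library after edgeR's TMM scaling. LincRNA-EPS, listed as *Ttc39aos1*, had 20, 37 and 41 counts in the WT libraries and 0 counts in each KO library. In WT replicate 2, the deviation of a gene from its mean over the libraries rose by 0.33 on the log2 scale for each 10 points of GC content. In KO replicate 3, it fell by 0.46. The other 4 slopes lay between -0.042 and 0.086. The log2 fold changes correlated with GC content over the tested genes, which are no replicates of each other, with r = -0.51 before and r = -0.016 after each library was corrected for its own trend. Each member is therefore described with and without this GC correction. GC trend and genotype cannot be told apart fully here, because the library with the steepest rise is WT and that with the steepest fall is KO. In these mRNA pools, fewer cells of a type and less RNA per cell cannot be told apart.

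Of the 9 members, all passed the filter on low counts, and 0 passed both limits (adjusted p below 0.01 and more than 1.3-fold) in edgeR's quasi-likelihood test with Benjamini-Hochberg adjustment. Among all 13428 genes tested, 0.00745% passed. Without adjustment, 0 members had p below 0.05, against 26.2% of all genes. DESeq2 gave an adjusted p for 6 members and called 0 of them at the same limits, against 1.21% of the genes it adjusted. *Mmp13*, *Mmp2* and *Timp1* had no adjusted p in DESeq2. The WT and KO libraries did not overlap for 2 members, *Mmp2* with higher and *Timp2* with lower levels in KO. This held for 35.7% of all genes tested. The median log2 fold change was 0.042 over the members and 0.0091 over all genes tested, with 5 members higher and 4 lower in KO. With the GC correction the medians were -0.054 and -0.0019, with 4 members higher and 5 lower. With this correction, 0 members passed the limits, against 0.0298% of all genes. When the limit on the adjusted p-value was 0.05, *Mmp9* alone passed, against 1.14% of all genes. The GC-corrected libraries did not overlap for *Mmp9*, *Mmp2*, *Mmp12* and *Timp2*, against 32.6% of all genes tested.

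**Figure D1:**
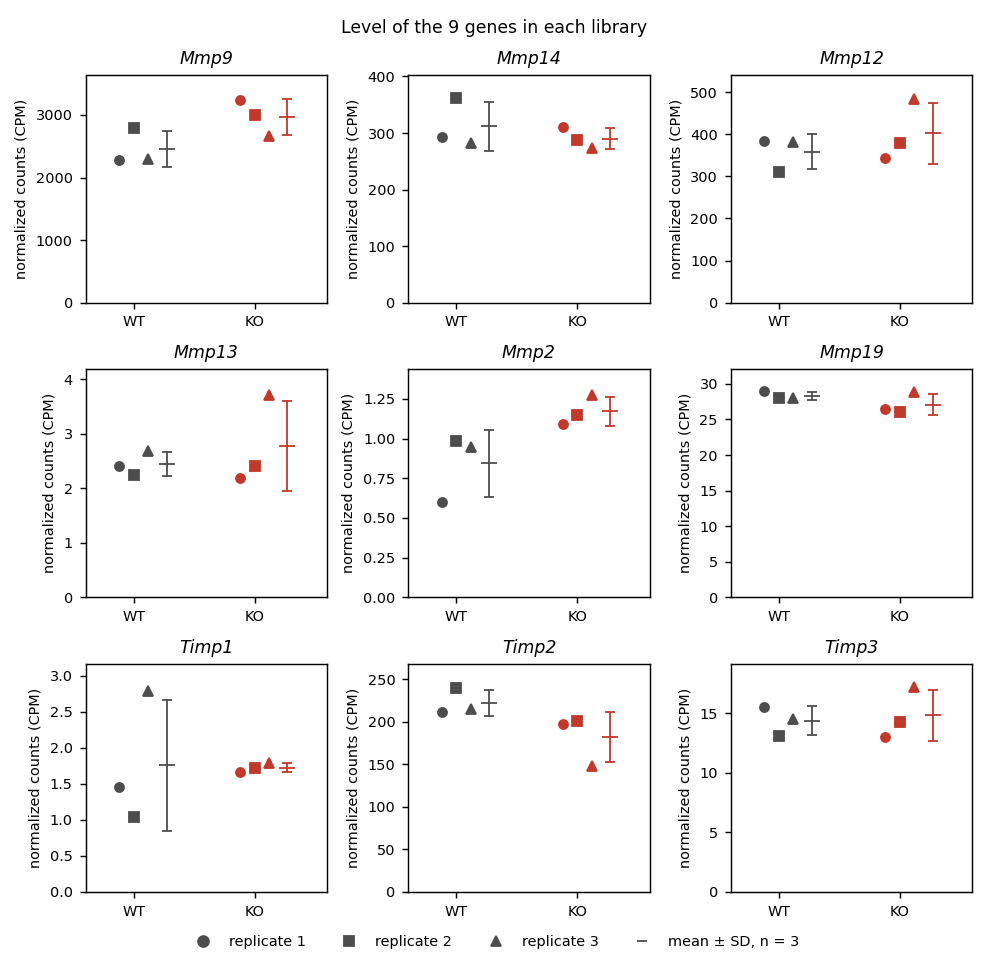
Level of each member in CPM (vertical axis, from 0) in the 3 WT and 3 KO libraries, with the mean and SD beside the points. The KO points lie above the WT points for *Mmp2* and below them for *Timp2*, and the points of the other 7 genes overlap.

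The order of the levels was read per transcript length, in CPM per kb. *Mmp9* stood far above the other members, with 772 ± 90.5 CPM per kb in WT and 935 ± 91.7 in KO (mean ± SD, n = 3 per genotype), and was number 52 of the 13176 tested genes with a known length. *Mmp12* (99.4 ± 11.5 in WT) and *Mmp14* (96.4 ± 13.4 in WT) came next, and the libraries of these neighbours overlapped. *Timp2* followed with 59.8 ± 4.03 CPM per kb in WT. *Mmp19* had 8.32 ± 0.172 CPM per kb in WT and *Timp3* had 3.05 ± 0.256. *Timp1* (1.99 ± 1.03 in WT) overlapped with *Timp3*, because WT replicate 3 had 3.15 CPM per kb of *Timp1*. The lowest levels were those of *Mmp13*, with 0.914 ± 0.0817 CPM per kb, and of *Mmp2*, with 0.274 ± 0.0684. In KO the order of the means was the same.

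*Mmp9* (ENSMUSG00000017737) encodes gelatinase B, which cleaves denatured collagen and is secreted in large amounts by osteoclasts. In GRCm38 it lies on the plus strand at chr2:164940780-164955850. It had 2274, 2784 and 2298 CPM in WT replicates 1, 2 and 3 and 3242, 3001 and 2662 CPM in KO replicates 1, 2 and 3. KO replicates 1 and 2 were above every WT library, and KO replicate 3 was below WT replicate 2. The means were 2452 ± 287 CPM in WT and 2968 ± 291 in KO (mean ± SD, n = 3 per genotype). The fold change was 1.21 (95% interval 0.988 to 1.48, adjusted p = 0.207, edgeR's quasi-likelihood test), which did not pass the limits. *Mmp9* took 0.230% to 0.278% of all counts in the WT libraries and 0.261% to 0.331% in the KO libraries.

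After the GC correction *Mmp9* had 2220, 2455 and 2226 CPM in the WT libraries and 3205, 3039 and 3190 CPM in the KO libraries. All KO libraries were then above all WT libraries, as for 14.9% of all genes tested. The spread within a genotype was smaller than before, with an SD of 134 CPM in WT and 91.6 in KO. The fold change was 1.37 (95% interval 1.20 to 1.56), with an adjusted p = 0.0437 in edgeR's test and 1.61e-06 in DESeq2, which called 3.31% of its genes with this correction. When single libraries were left out, the GC-corrected log2 fold change of *Mmp9* lay between 0.43 and 0.50. The adjusted p in edgeR's test then passed 0.05 only without KO replicate 1 (0.0195) or KO replicate 3 (0.0496). It was 0.146 without WT replicate 1, 0.105 without WT replicate 2, 0.147 without WT replicate 3 and 0.158 without KO replicate 2. Without WT replicate 2 and KO replicate 3 together, and with no GC correction, the log2 fold change was 0.45 and the adjusted p was 0.0232 in edgeR's test.

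*Mmp9* is also the member that the study measured by qRT-PCR. In cultures given bacterial lipopolysaccharide after RANKL-priming, a later stage than here, the paper reports higher *Mmp9* expression in KO osteoclasts. The primers are shown because they mark the part of the transcript that this assay reads. The forward primer matches bases 297 to 317 and the reverse primer bases 422 to 441 of ENSMUST00000017881.2, counted from the 5′ end, both within the coding sequence.
Forward: ctggacagccagacactaaag
Reverse: ctcgcggcaagtcttcagag
The product of 145 bases has a GC content of 51.7%, below the 55.2% of the whole transcript.

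The profile of *Mmp9* over the 6 libraries was compared with those of all other tested genes, by the root mean square difference in log2 CPM after each gene was centred on its own mean. The 5 most like it were *Gm48529* (0.0363), *Amacr* (0.0497), *Coq8a* (0.0531), *Pim2* (0.0571) and *Abtb3* (0.0592). Their WT levels ran from 2.22 CPM for *Gm48529* to 40.6 CPM for *Coq8a*. Of the other 8 members, *Mmp14* was nearest, with a difference of 0.192, and *Timp1* was farthest, with 0.488. No other member came close to the profile of *Mmp9*.

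*Mmp14* (ENSMUSG00000000957, chr14:54431612-54445364, plus strand) encodes a membrane-bound MMP that cleaves collagen at the cell surface and activates the precursor of Mmp2. Its levels were 293, 362 and 282 CPM in WT and 311, 287 and 273 CPM in KO replicates 1, 2 and 3. WT replicate 2 was the highest library, and the other 5 lay close together. KO stood at 0.930 of WT (95% interval 0.773 to 1.12, adjusted p = 0.576 in edgeR's test). After the GC correction the ratio was 1.03, with an interval of 0.911 to 1.16, so that its direction turned.

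*Mmp2* (ENSMUSG00000031740, chr8:92827291-92853420, plus strand) encodes gelatinase A, the other gelatinase, which is typical of stromal cells. It had 12.1, 17.7 and 18.0 estimated counts in WT and 21.2, 19.95 and 24.9 in KO, or 0.602, 0.985 and 0.945 CPM in WT and 1.09, 1.15 and 1.27 CPM in KO. Each KO library was above each WT library, as for 16.9% of all genes tested, and WT replicate 1 was the lowest. KO was 1.39-fold above WT with a wide interval of 0.881 to 2.21 (adjusted p = 0.308, edgeR's test), and 1.58 after the GC correction (adjusted p = 0.195). Without WT replicate 1 the log2 fold change went from 0.48 to 0.28. All 6 libraries were above the floor of 3 counts, which is 0.150 to 0.173 CPM, so that *Mmp2* was detected in both genotypes at a low level.

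*Mmp12* (ENSMUSG00000049723) encodes macrophage elastase and *Mmp13* (ENSMUSG00000050578) encodes collagenase 3. They are neighbours in the MMP gene cluster, on the plus strand at chr9:7344381-7369499 and chr9:7272514-7283331. *Mmp12* had 383, 311 and 381 CPM in WT and 344, 380 and 484 CPM in KO. *Mmp13* had 48, 41 and 51 counts in WT and 42, 42 and 73 counts in KO, or 2.41, 2.24 and 2.68 CPM in WT and 2.19, 2.42 and 3.72 CPM in KO. For both genes KO replicate 3 was the highest library, and for *Mmp12* the other KO libraries lay below WT replicates 1 and 3. Ratios of KO to WT were 1.12 for *Mmp12* (95% interval 0.895 to 1.41, adjusted p = 0.465) and 1.14 for *Mmp13* (0.776 to 1.67, adjusted p = 0.635) in edgeR's test. Without KO replicate 3 the log2 fold change went from 0.17 to 0.015 for *Mmp12* and from 0.19 to -0.089 for *Mmp13*.

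The GC correction turned the direction of both genes. *Mmp12* then had 395, 389 and 398 CPM in WT and 344, 369 and 369 CPM in KO, so that all KO libraries were below all WT libraries, as for 17.7% of all genes tested. Its log2 fold change was -0.13 (adjusted p = 0.223), and that of *Mmp13* was -0.066 (adjusted p = 0.844, edgeR's test for both). The same deviation of KO replicate 3 was seen at 2 more genes of the cluster that were tested, *Mmp8* (chr9:7558456-7568485) and *Mmp27* (chr9:7571396-7581885). *Mmp8*, the collagenase of neutrophil granules, had 114, 97.3 and 111 CPM in WT and 96.9, 102 and 125 CPM in KO. *Mmp27* had 8.12, 6.68 and 8.13 CPM in WT and 6.04, 6.50 and 10.5 CPM in KO. The transcripts of all 4 are poor in GC, with 40.1% to 43.4%. *Mmp12* shares 157 exonic bases with *Mmp1b* on the opposite strand, and *Mmp1b* had 0 counts in every library.

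**Figure D2:**
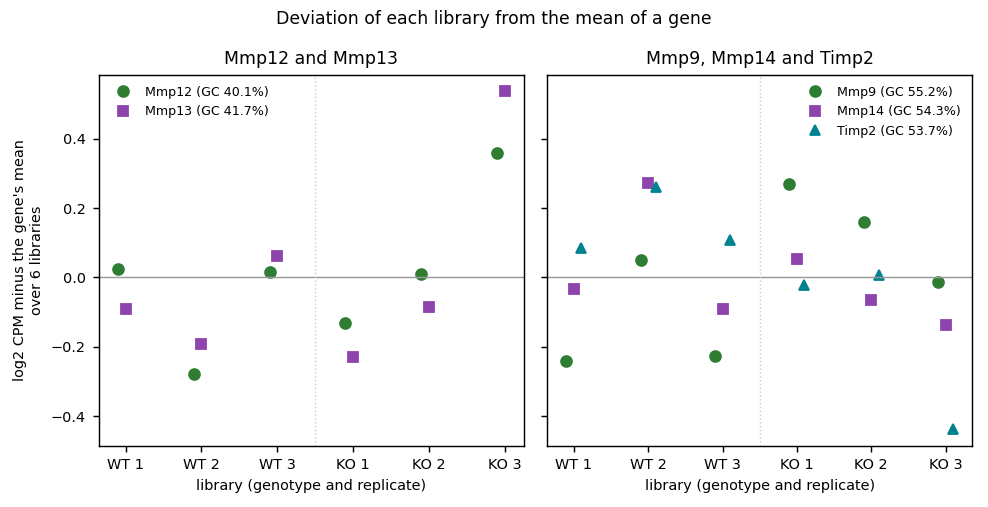
Deviation of each library from the mean of a gene over the 6 libraries, in log2 CPM (vertical axis), for the AT-rich *Mmp12* and *Mmp13* (left) and for *Mmp9*, *Mmp14* and *Timp2* (right). KO replicate 3 is the highest library for both genes on the left and the lowest for *Mmp14* and *Timp2*, and WT replicate 2 is the highest for *Mmp14* and *Timp2*.

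*Mmp19* (ENSMUSG00000025355, chr10:128790910-128800824, plus strand) encodes an MMP of macrophages and other cells that cleaves basement membrane proteins. It was the steadiest of the 9, with 29.0, 28.0 and 28.0 CPM in WT and 26.5, 26.0 and 28.8 CPM in KO. KO stood at 0.957 of WT (95% interval 0.818 to 1.12, adjusted p = 0.698 in edgeR's test), and 0.938 after the GC correction. *Mmp19* shares 789 exonic bases with *Tmem198b* on the opposite strand. That gene had 146 to 197 estimated counts in a library, against 452 to 578 for *Mmp19*, and whether the counting used strand is not given in the sources used here.

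*Timp2* (ENSMUSG00000017466, chr11:118301069-118355740, minus strand) encodes an inhibitor that blocks most MMPs and also takes part in the activation of Mmp2 by Mmp14. It had 212, 239 and 215 CPM in WT and 197, 201 and 148 CPM in KO. All KO libraries were below all WT libraries, as for 18.8% of all genes tested, and KO replicate 3 was the lowest by far. The means were 222 ± 14.96 CPM in WT and 182 ± 29.5 in KO (mean ± SD, n = 3 per genotype). KO minus WT on the log2 scale was -0.29 with a standard error of 0.13 (adjusted p = 0.195, edgeR's quasi-likelihood test). With the GC correction the libraries still did not overlap, with 208, 219 and 210 CPM in WT and 195, 203 and 168 CPM in KO, and the log2 fold change was -0.17 (adjusted p = 0.200). Without KO replicate 3 it was -0.16, and without both KO replicate 3 and WT replicate 2 it was -0.10, each without the GC correction.

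*Timp1* (ENSMUSG00000001131, chrX:20870166-20874735, plus strand) encodes an inhibitor that binds the precursor of Mmp9 as well as the active enzyme. It had 29, 19 and 53 counts in WT and 32, 30 and 35 counts in KO. The WT libraries held both the lowest and the highest value, and the KO libraries lay between them. The ratio of KO to WT was 0.979 with an interval of 0.568 to 1.69 (adjusted p = 0.960, edgeR's test), and without WT replicate 3 the log2 fold change was 0.46.

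*Timp3* (ENSMUSG00000020044, chr10:86300372-86349506, plus strand) encodes the inhibitor that stays bound to the matrix and also blocks ADAM proteases. Its levels were 15.5, 13.1 and 14.5 CPM in WT and 13.02, 14.3 and 17.2 CPM in KO, with KO replicate 3 again at the top. The ratio of KO to WT was 1.03 (95% interval 0.824 to 1.29, adjusted p = 0.862 in edgeR's test), and 0.963 after the GC correction. *Timp3* shares 1733 exonic bases with *Syn3* on the opposite strand, which had 0 to 5 counts in a library.

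**Figure D3:**
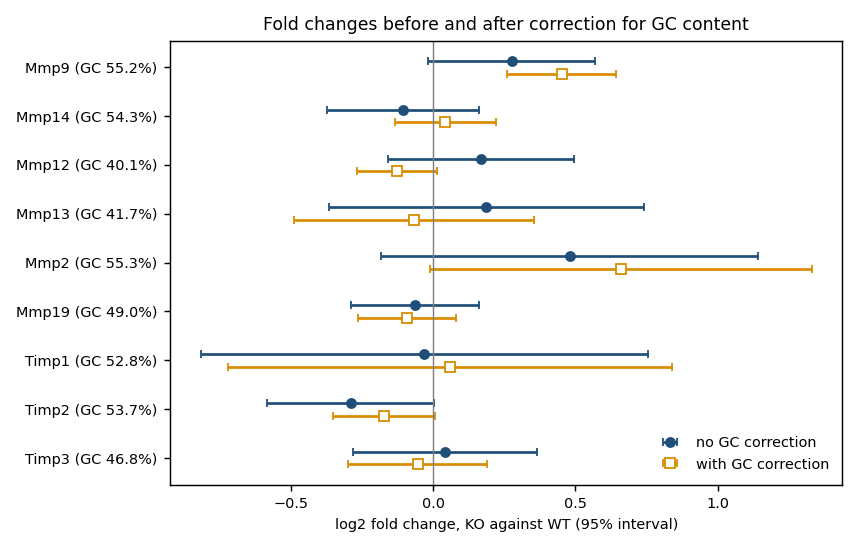
Log2 fold change of each member, KO against WT, with 95% intervals (horizontal axis), without the GC correction (filled) and with it (open). The interval lies above 0 only for *Mmp9* with the GC correction, and the points of *Mmp14*, *Mmp12*, *Mmp13*, *Timp1* and *Timp3* lie on opposite sides of 0 without and with it.

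Because a protease acts against its inhibitors, the levels of both were also summed within each library, in CPM per kb. This sum is a description with no test, since the members were chosen with earlier results of these data known. The 6 MMPs summed to 923 to 1084 CPM per kb in WT and to 1067 to 1221 in KO, and the ranges overlapped. The GC-corrected sums were 906 to 991 in WT and 1158 to 1215 in KO, without overlap. The 3 TIMPs summed to 62.0 to 68.4 CPM per kb in WT and to 45.5 to 59.0 in KO. The MMP sum was 14.9, 15.8 and 14.4 times the TIMP sum in WT replicates 1, 2 and 3 and 21.2, 19.4 and 23.5 times in KO replicates 1, 2 and 3, with means of 15.05 ± 0.727 and 21.4 ± 2.02 (mean ± SD, n = 3 per genotype). The ratio was thus higher in each KO library than in each WT library. With the GC correction the ratio was 14.4 to 15.7 in WT and 19.4 to 23.9 in KO. No share over all genes was computed for sums or for their ratio. Between the genotypes, the libraries did not overlap for 35.7% of all single genes tested, and for 32.6% with the GC correction. The transcripts of *Mmp9* and *Timp2* are close in GC content (55.2% and 53.7%). The correction moved the log2 fold change of *Mmp9* from 0.28 to 0.45 and that of *Timp2* from -0.29 to -0.17. The part of the GC trend in this ratio was not tested.

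A single protease and a single inhibitor made up most of both sums. *Mmp9* made up 77.6% to 80.9% of the MMP sum in WT and 78.6% to 83.6% in KO. *Timp2* made up 90.3% to 94.2% of the TIMP sum in WT and 87.5% to 91.9% in KO. The level of *Mmp9* was 12.5 to 13.6 times that of *Timp2* per kb in WT and 17.5 to 21.1 times in KO. Without *Mmp9*, the sum of the other 5 MMPs was 3.03 to 3.33 times the TIMP sum in WT and 3.47, 3.44 and 5.03 times in KO replicates 1, 2 and 3, so that KO replicate 3 stood apart. The GC-corrected ratio was 3.25 to 3.47 in WT and 3.37 to 4.14 in KO, and the ranges overlapped. The level of *Mmp14*, which acts together with *Timp2* on Mmp2, was 1.50 to 1.73 times that of *Timp2* in WT and 1.64 to 2.12 times in KO, and these ranges overlapped.

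**Figure D4:**
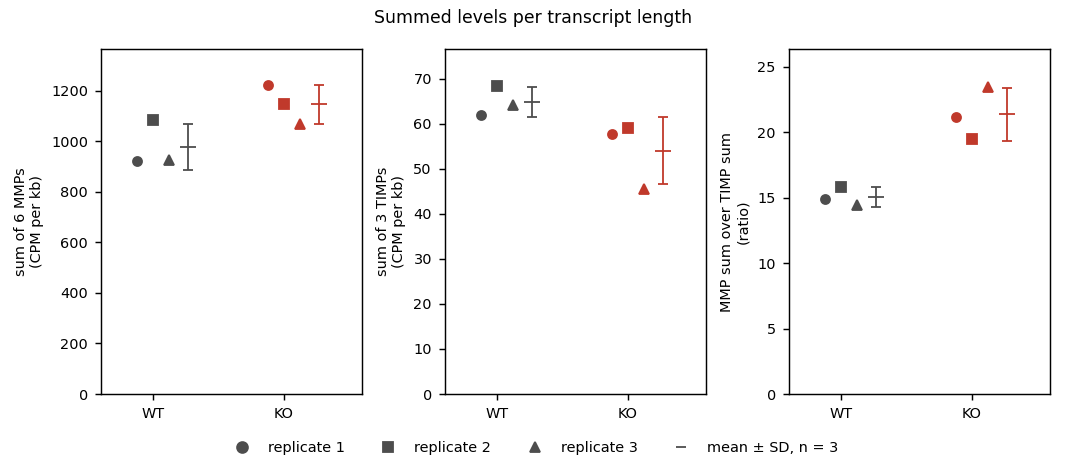
Sum of the 6 MMPs, sum of the 3 TIMPs (both in CPM per kb) and their ratio in each WT and KO library, with mean and SD. The MMP sums overlap between the genotypes, and the ratio lies at 14.4 to 15.8 in WT and 19.4 to 23.5 in KO.

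Of the 18 MMP and TIMP genes outside the members, 3 passed the filter, namely *Mmp8*, *Mmp25* and *Mmp27*. On the log2 scale KO minus WT was 0.0092, 0.038 and 0.0079 (adjusted p from 0.929 to 0.985 in edgeR's test), and -0.18, 0.15 and -0.22 after the GC correction. *Mmp8* had a mean of 44.4 CPM per kb over the 6 libraries, below *Timp2* and above *Mmp19* in the order of the members. *Mmp25*, which encodes a membrane-type MMP of leukocytes, had 3.09 ± 0.737 CPM in WT and 3.17 ± 0.790 in KO (mean ± SD, n = 3 per genotype). *Mmp1b*, *Mmp20* and *Timp4* had 0 counts in every library, which allows up to 3 counts or 0.150 to 0.173 CPM in a library by counting error alone. The highest of the remaining genes was *Mmp28*, with 4.29 to 12.5 estimated counts.

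Genes that inhibit or clear metalloproteinases, or that activate and dock them, were read from lists of the pathway. Of 11 other inhibitors and clearance receptors, 6 were tested, and 0 passed the limits. Without regard to a test, 2 had higher and 4 had lower means in KO, with a median log2 fold change of -0.31, and 1 higher and 3 lower genes had an unadjusted p-value under 0.05, against 13% and 13.2% of all genes. *Lrp1* encodes the endocytic receptor that takes up complexes of MMPs and TIMPs from the medium. It had 2514, 3457 and 2691 CPM in WT and 2077, 1413 and 968 CPM in KO. Each KO library was below each WT library, and the KO libraries were far apart from each other. The log2 fold change of *Lrp1* was -0.96 with a standard error of 0.25 (adjusted p = 0.147 in edgeR's test), and -0.71 after the GC correction (adjusted p = 0.0586). DESeq2 called *Lrp1* at the limits, with an adjusted p = 0.00603.

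Of 16 genes that activate or dock MMPs, 12 were tested, 4 with higher and 8 with lower means in KO, and 0 passed the limits. Their median log2 fold change was -0.072. With the GC correction 6 were higher and 6 lower, and the median turned to 0.017. *Cd44*, a hyaluronan receptor that holds Mmp9 at the cell surface, had 653, 629 and 640 CPM in WT and 685, 685 and 906 CPM in KO, with a log2 fold change of 0.24 that became 0.080 after the GC correction. *Itgav*, an integrin subunit, had a log2 fold change of 0.49 (adjusted p = 0.147), and *Itgb1*, its partner in some integrins, had 0.21 (adjusted p = 0.280), both in edgeR's test. After the GC correction these were 0.30 and 0.056. *Lcn2*, whose human protein can form a complex with MMP9, had 84.8, 83.1 and 78.1 CPM in WT and 120, 119 and 103 CPM in KO. The log2 fold change of *Lcn2* was 0.47, with an adjusted p = 0.145 in edgeR's test and 0.0102 with the GC correction, and DESeq2 called it at the limits (adjusted p = 0.00407).

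The ADAM and ADAMTS proteases share the zinc-dependent mechanism and several of them are blocked by Timp3. Of 18 such genes 11 were tested, 2 with higher and 9 with lower means in KO, with a median log2 fold change of -0.23. None passed the limits in edgeR's test, and 4, all lower in KO, had an unadjusted p-value under 0.05, against 13.2% of all genes. *Adam8*, a myeloid ADAM, had 1021, 1251 and 1061 CPM in WT and 935, 880 and 727 CPM in KO, or -0.39 on the log2 scale (adjusted p = 0.148, edgeR's test) and -0.23 after the GC correction. *Adam15* had 268 ± 47.2 CPM in WT and 180 ± 36.5 in KO (mean ± SD, n = 3 per genotype), with a log2 fold change of -0.57 that became -0.23 after the GC correction. *Adam17*, the protease that releases TNF from the cell surface, had 254 ± 5.88 CPM in WT and 247 ± 7.85 in KO, and *Adamts10* had 22.0 ± 0.702 and 16.8 ± 2.00 (mean ± SD, n = 3 per genotype). The log2 fold change of *Adamts10* went from -0.39 to -0.094 with the GC correction.

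Markers of cell types were read beside the members, since several MMPs and TIMPs differ between cell types. All 14 osteoclast markers were tested and 10 had higher means in KO, 7 of them at an unadjusted p below 0.05, against 13% of all genes. Their summed level was 4393 to 4541 CPM in WT and 5575 to 5748 in KO, in the same direction as the mean of *Mmp9*. With the GC correction, 13 osteoclast markers were higher and 1 was lower in KO. Of 12 neutrophil markers, 11 were tested, 7 with higher means, and their summed level was 1348 to 1511 CPM in WT and 1772 to 2090 in KO. At an unadjusted p below 0.05, 5 were higher, against 13% of all genes, and 2 were lower, against 13.2%, and the libraries did not overlap for 5 higher genes, against 16.9%, and for 3 lower genes, against 18.8%. Mature neutrophils also make *Mmp9*. Of their surface markers, the chemokine receptor *Cxcr2* had 6.05 ± 1.34 CPM in WT and 13.5 ± 1.52 in KO (mean ± SD, n = 3 per genotype), with an adjusted p of 0.12 in edgeR's test and 7.71e-05 in DESeq2, while *Ly6g* had 0 to 5 counts in a library. *Csf3r*, the receptor of the growth factor G-CSF, had 29.1 ± 5.22 CPM in WT and 32.3 ± 2.95 in KO (mean ± SD, n = 3 per genotype; adjusted p = 0.514 in edgeR's test), and its libraries overlapped. *S100a8*, *S100a9*, *Ngp* and *Ltf*, all granule or cytosolic proteins of neutrophils, were the other genes higher in KO without overlap, and the lower ones were *Mpo*, a granule peroxidase, and the granule proteases *Elane* and *Prtn3*. With the GC correction, the log2 fold changes of *Mpo*, *Elane* and *Prtn3* went from -0.42, -0.33 and -0.46 to -0.20, -0.097 and -0.094. Those of *S100a8*, *S100a9*, *Ngp*, *Ltf* and *Cxcr2* went from 0.94, 0.80, 0.49, 0.27 and 1.16 to 0.79, 0.66, 0.50, 0.30 and 1.02. The level of *Mmp8*, another MMP of neutrophils, was 107 ± 8.98 CPM in WT and 108 ± 15.2 in KO (mean ± SD, n = 3 per genotype). The log2 fold change of *Mmp8* was 0.0092, and -0.18 after the GC correction. The part of these cell types in the level of *Mmp9* was not tested.

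All 11 macrophage markers were detected and tested in these cells, which are labelled as macrophages. Of these, 10 had lower means in KO, 6 of them at an unadjusted p below 0.05 (against 13.2% of all genes), and for 7 the libraries did not overlap (against 18.8%). The median log2 fold change over the 11 was -0.27, and -0.13 after the GC correction. *Mertk*, a receptor for the uptake of dead cells, had 26.0 ± 0.653 CPM in WT and 17.5 ± 0.912 in KO (mean ± SD, n = 3 per genotype; adjusted p = 0.136 in edgeR's test, 0.00214 in DESeq2). The summed level was 16751 to 17869 CPM in WT and 15033 to 17831 in KO, and most of it was *Lyz2*, with 13303 ± 729 and 12882 ± 1463 CPM. The part of this difference in the levels of the members was not tested. Stromal and osteoblast markers, 8 of 18 tested, summed to 29.0 to 39.8 CPM in WT and to 26.0 to 37.1 in KO. *Bglap*, which encodes osteocalcin, had 0 counts in every library. *Mmp2*, *Mmp13*, *Timp1* and *Timp3* are known from stromal cells, and the part of such cells in their low levels was not tested. Endothelial markers, 6 of 8 tested, summed to 107 to 135 CPM in WT and to 60.8 to 96.6 in KO, with *Vwf* alone at 97.8 ± 12.7 and 60.7 ± 17.0 CPM (mean ± SD, n = 3 per genotype). Of the 6 tested, 2 had higher and 4 had lower means in KO. Only *Vwf* had an unadjusted p below 0.05 in edgeR's test (against 13.2% of all genes, lower in KO) and libraries without overlap (against 18.8%). Lymphocyte markers, 5 of 11 tested, summed to 6.62 to 7.82 CPM in WT and to 8.44 to 10.6 in KO, and the libraries overlapped for each of the 5.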

How the data were processed

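Total RNA of 3 WT and 3 KO cultures was sequenced from stranded mRNA libraries. The authors deposited estimated counts per gene, not normalized and partly not whole (25.1% to 26.6% of detected values), with their means per genotype and annotation columns, which were not used. The submitters' processing notes name fastp, HISAT2, StringTie, RSEM and the build GRCm39, with no versions or roles. Positions, lengths and GC content come from GENCODE M21 on GRCm38, from the longest protein-coding transcript of a gene, or its longest transcript if none codes for protein. They were matched by gene identifier, and no coordinates of the counts were used. Rows with no gene name held 0.173% to 0.239% of counts and were kept in the library totals and in the fit, under the same filter on low counts.

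Estimated counts were rounded. In R 4.3.3, edgeR 4.0.16 was run with filterByExpr, TMM, glmQLFit (legacy = FALSE) and glmQLFTest on genotype alone, with Benjamini-Hochberg adjustment over 13428 genes. The common biological coefficient of variation was 0.142. The limits were an adjusted p under 0.01 and a fold change above 1.3. For the GC correction, the log2 CPM of a library minus the mean over libraries was modelled on transcript GC content with a natural spline (5 degrees of freedom), and the fitted trend was used as an offset. It used 13176 genes, and the 252 genes with no GC value were left as they were. Alternatives were DESeq2 1.42.0 (its size factors and its Wald test), library size alone, edgeR's legacy test, limma-voom (limma 3.58.1), other filters, the replicate number as a block, and each library left out. Chosen after the data were seen were the GC correction at an adjusted p under 0.05, the same correction with each library left out for *Mmp9*, and the fit without WT replicate 2 and KO replicate 3.

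The members, lists and limits were chosen with earlier results of these data known. All 9 members are named. Of each pathway list, the 2 tested genes with the highest mean CPM and the 2 with the smallest p were named, and for *Mmp9* the 5 genes with the most similar profile. One gene that this rule names is not reported here. *Mmp1b*, *Mmp20*, *Timp4* and *Mmp28*, the overlapping genes, and all markers of cell types given by name were named after their values were seen. The fits were tested on simulated counts. No pair of libraries agreed within sampling noise (chi-square of at least 3.77 per degree of freedom, where noise alone gives 1). The lowest value was that of WT replicates 1 and 3. KO replicate 1 had 9.30 with WT replicate 1, 34.6 with WT replicate 2 and 8.95 with WT replicate 3. With KO replicates 2 and 3 it had 39.2 and 56.9, so it was nearer to each WT library than to another KO library. KO replicates 2 and 3 had 69.3 with each other. The top gene of KO replicate 2 was *Rn18s-rs5*, with 2.71% of counts. With 3 libraries per genotype the smallest exact permutation p is 0.1, so no such test was run. Floors of 3 counts cover counting error only.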

Additional observations from a re-analysis of the deposited data

How the results depend on the processing

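The number of members past the limits was 0 under every alternative run except the GC correction with DESeq2 and the GC correction at an adjusted p under 0.05, where it was 1, *Mmp9*, in each. Over all genes, 1 gene passed in edgeR's test. DESeq2 gave 126 (54 higher, 72 lower), the GC correction 4 (1 higher, 3 lower), the GC correction with DESeq2 358 (190 and 168), the GC correction at an adjusted p under 0.05 gave 153 (64 and 89), and the fit without WT replicate 2 and KO replicate 3 gave 8 (5 and 3). Leaving out single libraries gave between 0 and 2.

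*Mmp9* kept its direction in all 26 alternatives run on it, and *Mmp2*, *Mmp19* and *Timp2* in all 19 run on each. These counts include settings that change only the limit on the adjusted p, whose direction could not differ. With each library left out, the log2 fold change was 0.21 to 0.38 for *Mmp9* and -0.37 to -0.16 for *Timp2*. For 5 members the direction turned. With the GC correction alone, with the replicate block, and with DESeq2, in this order, the log2 fold change was 0.043, 0.046 and 0.045 for *Mmp14*, -0.13, -0.13 and -0.12 for *Mmp12*, -0.066, -0.080 and -0.069 for *Mmp13*, 0.060, 0.11 and 0.062 for *Timp1*, and -0.054, -0.057 and -0.051 for *Timp3*. Without WT replicate 2 and KO replicate 3, *Mmp14* had 0.057, *Mmp12* -0.078, *Mmp13* -0.14, *Timp1* -0.31 and *Timp3* -0.14. With each library left out, the values were -0.18 to 0.014 for *Mmp14*, 0.015 to 0.27 for *Mmp12*, -0.089 to 0.34 for *Mmp13*, -0.29 to 0.46 for *Timp1* and -0.080 to 0.13 for *Timp3*. Limma-voom gave 0.088 and the replicate block 0.012 for *Timp1*. The cause of these turns was not tested beyond the GC correction itself.

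The labels give both genotypes the replicate numbers 1 to 3. The deviations of same-numbered WT and KO libraries from their group means had r = -0.22, 0.077 and 0.17, so the numbers were not taken as pairs. With the replicate block, 0 members and 1 gene passed the limits, and the log2 fold change of *Mmp9* was 0.28 (adjusted p = 0.260, edgeR's test); with the GC correction and the block together its adjusted p was 0.0953.

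Counts of 12.1 to 73 per library limit what can be said of *Mmp2*, *Mmp13* and *Timp1*, whose fold change intervals were as wide as 0.568 to 1.69 for *Timp1*. DESeq2 gave no adjusted p for these 3 genes.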
